A study of Mus musculus with 9 samples.

Results

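The lysosome genes examined here were 39 genes taken by name: the 3 TFEB family transcription factors Tfeb, Tfe3, and Mitf, and 36 genes for lysosomal proteases, glycosidases, lipid-handling proteins, membrane proteins, and subunits of the proton pump. They are 39 of the 54119 genes for which the deposited table lists a transcript, and the counts of all 244 of their transcripts were summed to genes. Primary microglia from whole brains of C57BL/6J mouse embryos at embryonic day 18, shaken off mixed glial cultures, received control siRNA, Chd8 siRNA, or Tsc2 siRNA for 3 days, and 3 RNA-seq libraries were made per siRNA. Small interfering RNAs (siRNAs) guide the cell's own machinery to cut the mRNA of the gene they are designed against. Chd8 encodes a chromatin remodeler and Tsc2 a subunit of the complex that restrains the kinase mTORC1, and both are autism-related genes. All 3 groups carry the replicate numbers 1, 2, and 3, and each replicate was a culture from a separate brain according to the methods. The text of the study places the cells under lipopolysaccharide for 3 days, whereas the sample descriptions name no such treatment for any group. No gene was deleted in any group, and knockdown by siRNA left part of each target mRNA.

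Lysosomes are acidic organelles in which cathepsins cut proteins, glycosidases trim sugar chains, and lipases and ceramidases take lipids apart. The proton pump V-ATPase acidifies them, and microglia use them to digest what they engulf. TFEB, TFE3, and MITF bind E-box sequences in the promoters of many lysosome genes, and mTORC1 holds TFEB and TFE3 in the cytoplasm by phosphorylation.

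Because the TFEB family reads DNA, promoters were searched first, for both strands of TCACGTG, the core of the CLEAR element that TFEB binds. RefSeq promoters of GRCm38.p6, the assembly of mm10, from 250 bases before to 50 bases after the start of transcription, were at hand for 32 of the 39 genes. Of these, 11 (34.4%) held TCACGTG, namely Atp6v0d1, Atp6v1a, Cln3, Ctsa, Ctsd, Gaa, Gla, Glb1, Lamp1, Lgmn, and Mcoln1. The motif was in 4.29% of all 27025 promoters, in 6.62% of those of the genes tested below, and in 19 of 84 (22.6%) of those of other lysosome pathway genes. The E-box CACGTG, which TCACGTG contains, was in 12 of 32 (37.5%) against 8.09% of all promoters, and the M-box TCATGTG, read by MITF, in 6 of 32 (18.8%) against 4.31%. The 5 windows shown are those of Ctsd, Gla, and Gaa, described in the siRNA comparisons below, and of Lgmn and Atp6v1a, the genes with TCACGTG that differed by replicate number. Ctsd and Gla held the motif at 2 places, and the one nearer to the start is given. Capitals mark the motif, with the final A where the palindrome TCACGTGA is complete, and each is written 5′ to 3′ on the strand of its gene.
Ctsd, chr7:142387910-142387935, minus strand, 99 bases before the start: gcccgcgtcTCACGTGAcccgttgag
Gla, chrX:134601184-134601209, minus strand, 195 bases before the start: agatctcggTCACGTGAgcaactctc
Gaa, chr11:119267813-119267837, plus strand, 141 bases before the start: tctgtgcgaTCACGTGtttgactct
Lgmn, chr12:102439127-102439151, minus strand, 50 bases before the start: gaatgtctgTCACGTGgtccatttt
Atp6v1a, chr16:44139375-44139400, minus strand, 132 bases before the start: ttttttaaaTCACGTGAtaggcttaa
The match describes these letters and was not tested for binding.

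Total counts per library were between 16913448 and 33213801. Levels of 1 gene were compared between libraries as CPM, counts scaled by total and by TMM factors, and levels of different genes as TPM, which also divides by transcript length. All 39 lysosome genes passed the filter on low counts together with 16273 genes in all. They were expressed well above most genes, with a median over genes of the mean TPM of 30.3 against 1.19 for all genes tested, and 32 of the 39 were at or above the upper quartile. The microglial label was held against 14 markers, of which 13 had a mean of at least 1 CPM. Csf1r was between 405 and 572 CPM, whereas the homeostatic markers P2ry12 (0.686 to 2.78 CPM) and Tmem119 (0 to 1.11 CPM) were low. Chd8 was 118, 97.4, and 93.6 CPM in control libraries 1 to 3 and 86.8, 44.5, and 38.3 CPM in Chd8 siRNA libraries. Tsc2 was 40.8, 39.9, and 38.9 CPM in control libraries and 24.6, 30.6, and 36.5 CPM in Tsc2 siRNA libraries, each lower than the control library with the same number, and the third by the least.

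The sum over the 39 genes was 17908, 18824, and 15979 CPM in control libraries, 20332, 19982, and 17771 CPM in Chd8 siRNA libraries, and 19574, 18547, and 17575 CPM in Tsc2 siRNA libraries. It was thus between 1.60% and 2.03% of the scaled library, and the ranges of the 3 groups overlapped. Within replicate numbers the sum was higher with Chd8 siRNA than with control siRNA at all 3 numbers, with or without TMM factors, and with Tsc2 siRNA at 2 of 3. Ctsb alone held 26.3% to 29.2% of the sum. Ctsb with Ctsd, Ctss, Ctsc, Psap, and Grn held 64.4% to 67.0%.

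Per length, 11 of the 39 genes had a mean of over 100 TPM in control libraries, 19 were between 10 and 100 TPM, 7 between 1 and 10 TPM, and 2 under 1 TPM. The cysteine protease gene Ctsb led with 645 ± 15.9 TPM (SD, n = 3, as for all group values below). It was followed by the cysteine protease gene Ctss with 529 ± 92.3 TPM, the aspartic protease gene Ctsd with 364 ± 29.6 TPM, and Ctsc, which encodes an activator of other proteases, with 261 ± 25.5 TPM. The control ranges of these 4 neighbours in the order did not overlap, but those of 26 of all 38 neighbouring pairs did. The lowest were Tfeb with 0.779 ± 0.384 TPM and the acid sphingomyelinase gene Smpd1 with 0.672 ± 0.152 TPM, whose ranges overlapped.

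**Figure D1:**
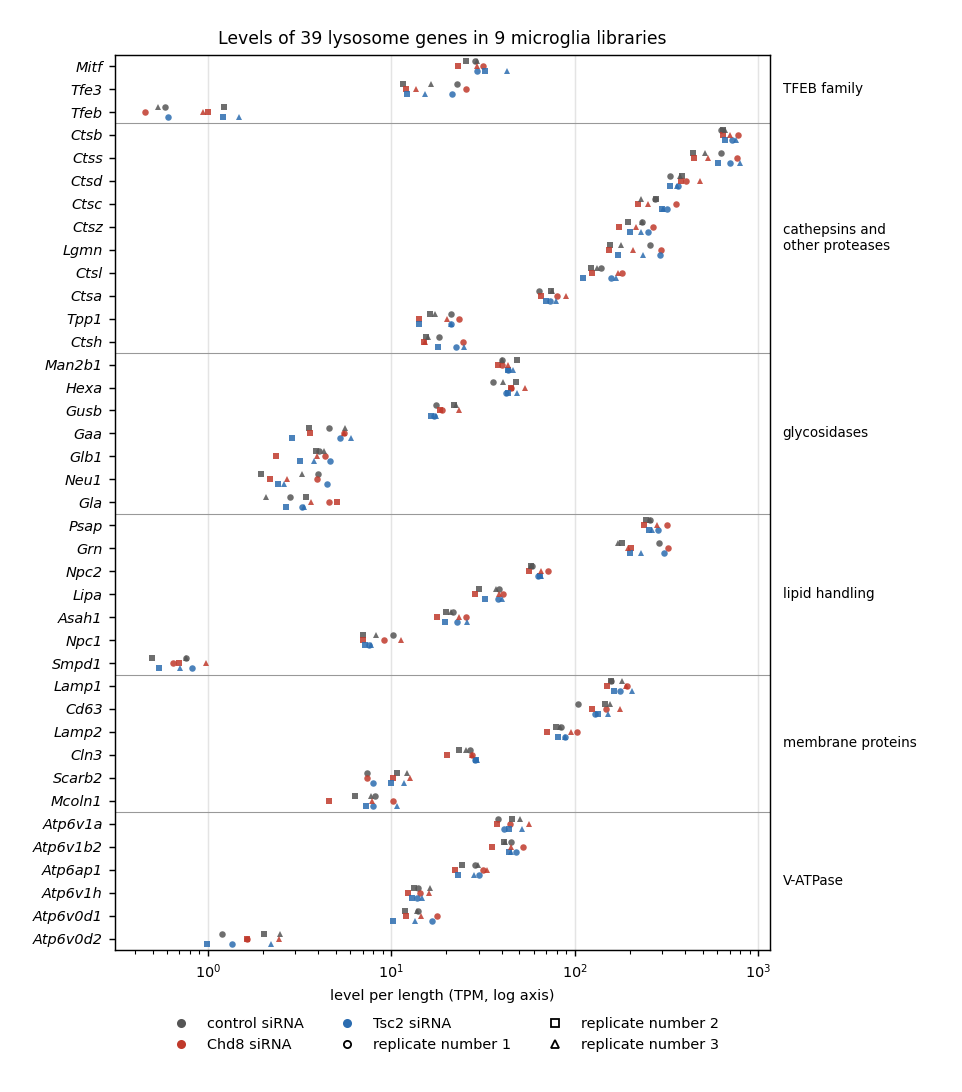
Level per length (TPM, log axis) of the 39 lysosome genes, grouped by role, in each of the 9 libraries, with the siRNA as colour and the replicate number as symbol. Ctsb, Ctss, and Ctsd lead at over 300 TPM, and Tfeb and Smpd1 lie around 1 TPM.

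The 3 TFEB family members were at different levels. Mitf was 28.6, 25.7, and 29.3 TPM in control libraries 1 to 3, Tfe3 was 22.9, 11.7, and 16.5 TPM, and Tfeb was 0.583, 1.22, and 0.533 TPM. The 3 ranges did not overlap. Tfeb rested on 27 to 79 counts per library, so that its changes below have wide intervals. Among the proteases, 8 of 10 were over 50 TPM, whereas the glycosidases spanned 43.2 TPM for Man2b1 down to 2.77 TPM for Gla. Among the V-ATPase subunits, Atp6v1a and Atp6v1b2 were at 44.8 and 42.6 TPM, and Atp6v0d2, known from osteoclasts and macrophages, was at 1.90 TPM.

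In 23 of the 39 genes, 1 transcript held over 80% of the counts in every library. Neu1, the lysosomal sialidase gene, had between 29.3% and 62.0% of its counts on transcripts annotated as retained introns, Mcoln1, which encodes a lysosomal cation channel, 19.0% to 30.5%, and Tfe3 18.1% to 23.3%. The lead transcript of Tfeb, Tfeb-201, ranged from 0% to 50.5% of its counts. Gla, the alpha-galactosidase A gene on the X chromosome (134588149 to 134601125), has 2 transcripts. Gla-201, of 3172 bases, had 141, 10.5, and 123 counts in control libraries, 141, 237, and 123 in Chd8 siRNA libraries, and 142, 0, and 0 in Tsc2 siRNA libraries. Gla-202, of 337 bases, had between 16.6 and 69.9 counts in every library. The counts of Gla as a whole moved with the estimates for Gla-201. How reads were split between both transcripts cannot be checked from estimated counts, and the TPM of Gla depends on that split.

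At an adjusted p of 0.05 in edgeR, more of these genes differed by replicate number than by siRNA. In a model with both factors, 16 of the 39 genes differed by replicate number at an FDR of 0.05 (edgeR's quasi-likelihood test, Benjamini-Hochberg adjustment over all genes), against 25% of all genes tested. No fold was required here, and the 3 numbers were tested together. In that model the lowest adjusted p of the 39 genes was 0.177 for Chd8 against control siRNA. It was 0.0731 for Tsc2 against control siRNA and 0.0977 for Tsc2 against Chd8 siRNA. Of 104 other lysosome pathway genes tested, 46 (44.2%) did so. Without control library 2, the count among the 39 genes was 10. The genes were Tfe3, the proteases Lgmn, Ctsc, Ctss, and Ctsz, the glycosidases Neu1, Man2b1, Hexa, and Gusb, the lipid-handling genes Grn, Npc2, and Psap, the membrane protein genes Scarb2 and Cd63, and the V-ATPase genes Atp6v1a and Atp6v1b2. In 5 of the 16 all 3 libraries with number 1 were above the other 6, in 2 they were below, and in 9 they overlapped them.

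Tfe3 (chromosome X, 7762560 to 7775202) had the lowest p of the 39 genes for the replicate number. It was 130, 121, and 116 CPM in the control, Chd8, and Tsc2 siRNA libraries with number 1, 70.8, 77.0, and 71.4 CPM in those with number 2, and 71.3, 73.4, and 76.6 CPM in those with number 3. All 3 libraries with number 1 were thus above the other 6, with a log2 difference of −0.75 for number 2 and −0.73 for number 3 against number 1. Lgmn, which encodes the asparaginyl protease legumain (chromosome 12, 102394084 to 102439813), was 999, 1075, and 1106 CPM with number 1, 686, 763, and 723 CPM with number 2, and 648, 760, and 800 CPM with number 3 in the same order of siRNAs. Grn, the progranulin gene (chromosome 11, 102430315 to 102437048), was 1261, 1345, and 1327 CPM with number 1, 908, 1138, and 957 CPM with number 2, and 700, 801, and 889 CPM with number 3. Neither gene had an overlap between number 1 and the rest. The opposite order was seen in Scarb2, which encodes the receptor that carries glucocerebrosidase to lysosomes, with 63.9 to 71.1 CPM in libraries with number 1 and 93.2 to 112 CPM in the others. Atp6v1a, the gene of the catalytic subunit of the proton pump (chromosome 16, 44085402 to 44139705), was 265, 265, and 248 CPM with number 1, 323, 334, and 300.3 CPM with number 2, and 291, 325, and 295 CPM with number 3, again with number 1 below the rest. Of the genes with TCACGTG in the promoter 2 of 11 differed by replicate number, Lgmn and Atp6v1a, and of those with a promoter but without the motif 13 of 21.

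Markers of other cells moved with the replicate number as well. The summed level of 8 astrocyte markers, all with a mean of at least 1 CPM, was 13.4 to 15.3 CPM in libraries with number 1, 26.3 to 29.4 CPM with number 2, and 57.9 to 114 CPM with number 3, and Aqp4 was at 0 in every library with number 1. For 6 fibroblast markers, of which 4 had a mean of at least 1 CPM, the sums were 8.66 to 11.7, 14.9 to 30.0, and 27.5 to 66.8 CPM, and for 14 microglial markers 4109 to 4560, 4096 to 4367, and 3346 to 4231 CPM. The 8 markers of the oligodendrocyte lineage, 3 of them with a mean of at least 1 CPM, went the other way, with sums of 24.2 to 27.4, 24.4 to 26.7, and 11.8 to 19.9 CPM. The sums of 4 endothelial markers, 3 of them with a mean of at least 1 CPM, overlapped between numbers (122 to 150.1, 108 to 148, and 134 to 193 CPM). Those of 6 neuronal markers, 2 of them at that level, were 2.91 to 4.56, 4.31 to 6.44, and 5.80 to 19.3 CPM. These 2 were Map2 and Stmn2, whereas Snap25 was lower with number 3 than with number 1 in each siRNA group. Total counts also differed, with 22778884 to 29744172 in libraries with number 1, 16913448 to 20997419 with number 2, and 22184872 to 33213801 with number 3. The part of these cells and of depth in the differences was not tested. In bulk RNA, fewer cells of a type and less RNA per cell cannot be told apart.

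**Figure D2:**
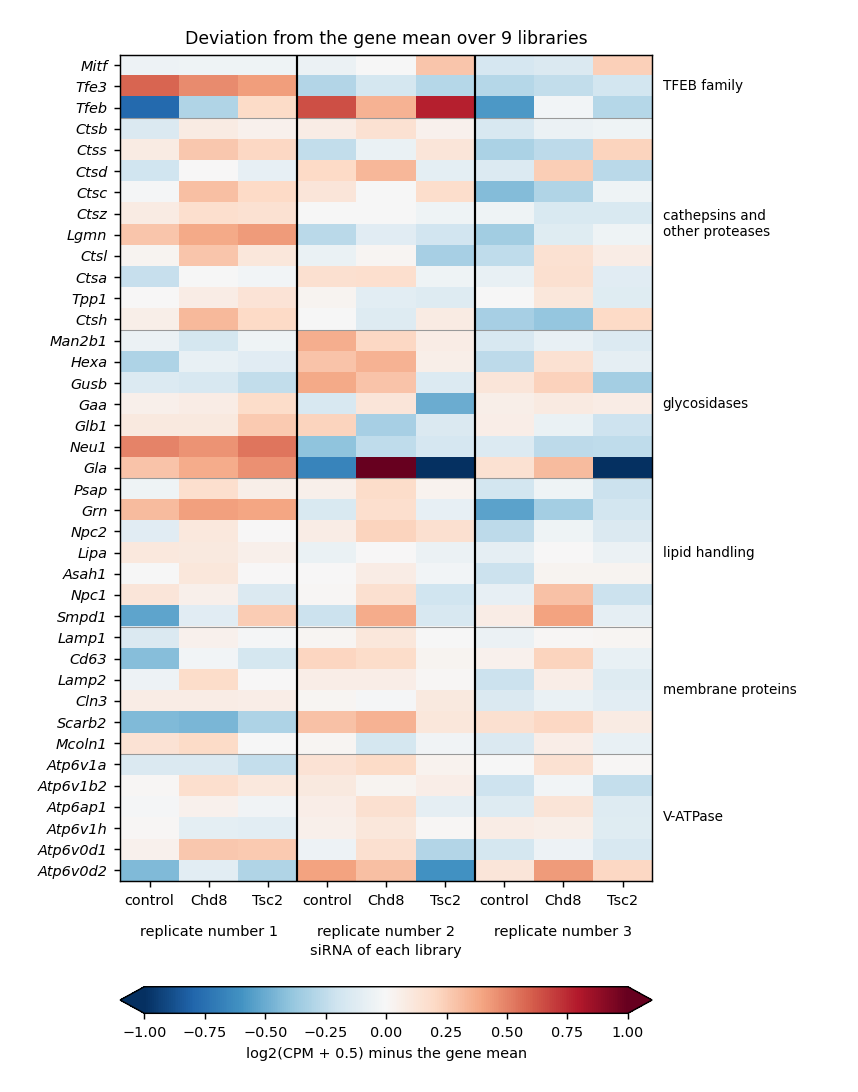
Deviation of log2(CPM + 0.5) from the mean of each lysosome gene over 9 libraries, with libraries as columns ordered by replicate number and siRNA, and genes as rows grouped by role. Tfe3, Lgmn, Neu1, and Grn are above their mean in all 3 libraries with number 1 and Scarb2 is below it, and Gla exceeds the colour range in 3 libraries.

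The first siRNA comparison asked whether Chd8 knockdown altered the lysosome genes. A call required both an adjusted p of at most 0.05 and at least a 1.5-fold difference. None of the 39 was called, and 0% of all genes tested were. With a block for the replicate number, again 0 of the 39 were called, against 0.535% of all genes, and the lowest adjusted p among them was 0.177, for Ctsd. The log2 fold changes of Chd8 siRNA against control siRNA had a median of 0.14 over the 39 genes and −0.02 over all genes tested. With TMM factors they were above 0 in 32 of the 39, against 47.8% of all genes tested. Without these factors 27 of the 39 were, and with DESeq2's size factors 35. The median of the 39 was 0.09 without TMM factors, a scaling that also moved the median of all genes to −0.06. At an unadjusted p under 0.05, 0 of the 39 passed without the block, against 3.82% of all genes. With it 9 passed, all with positive log2 fold changes, against 12.8% of all genes in both directions together. Marker sums differed between these groups too. The 4 endothelial markers summed to 148 to 193 CPM in control and 108 to 134 CPM in Chd8 siRNA libraries, and nearly all of this was Flt1 (136 to 186 against 97.1 to 127 CPM). Cldn5 was at or near 0 in every library, and Pecam1 and Cdh5 overlapped between the groups. In control library 3 the astrocyte and fibroblast sums were 114 and 66.8 CPM, against 57.9 and 27.5 CPM in Chd8 siRNA library 3, and the microglial sums were 3346 to 4109 CPM in control and 3663 to 4560 CPM in Chd8 siRNA libraries. Their part in the shift was not tested. The 95% interval lay within a 1.5-fold change in either direction for 29 of the 39 genes, and with the block for 35, the exceptions being Gla, Smpd1, Tfeb, and Atp6v0d2.

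By role, the medians were 0.14 for the 10 proteases, 0.00 for the 7 glycosidases, 0.16 for the 7 lipid-handling genes, 0.07 for the 6 membrane protein genes, and 0.11 for the 6 V-ATPase genes on the log2 scale. All 7 lipid-handling genes had values above 0 under each scaling, and 3 of 7 glycosidases did with TMM factors. All 6 membrane protein genes had values above 0 with TMM factors, but only 3 of 6 without them. Within replicate numbers, 19 of the 39 genes were higher with Chd8 siRNA at all 3 numbers, against 17.7% of all genes, and 1, the beta-galactosidase gene Glb1, was lower at all 3, against 18.3%. In 3 genes all Chd8 siRNA libraries were above all control libraries, against 4.17% of all genes, and in 0 were they below, against 4.92%.

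Ctsl, a cysteine protease gene (chromosome 13, 64359337 to 64370890), was 327, 306, and 268 CPM in control libraries and 388, 325, and 356 CPM in Chd8 siRNA libraries. It was higher at every replicate number, although Chd8 siRNA library 2 was just under control library 1. The log2 fold change was 0.25 ± 0.15 (SE, as for all log2 fold changes below), with an unadjusted p of 0.127 in edgeR and an adjusted p of 1.00. Reads of Ctsl could be shared with Gm49230, which overlaps it on the same strand.

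Ctsd (chromosome 7, 142375911 to 142388038), whose product also degrades alpha-synuclein, was 1389, 1832, and 1451 CPM in control libraries and 1599, 2012, and 1894 CPM in Chd8 siRNA libraries. It too was higher at every number, with overlapping groups and a log2 fold change of 0.24 ± 0.14 (95% interval −0.08 to 0.56), which was 0.37 without control library 2. Its reads could be shared with Gm49369. With the block, DESeq2 and limma-voom gave Ctsd adjusted p-values of 0.0486 and 0.0496, at log2 fold changes of 0.25 and 0.24, and DESeq2 gave Npc2, the gene of a cholesterol carrier, 0.0317 at 0.20. All 3 were under the fold required for a call.

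Gla was 6.64, 3.20, and 6.01 CPM in control libraries and 7.07, 17.8, and 6.79 CPM in Chd8 siRNA libraries. The groups did not overlap, but the distance between them was small except for library 2, and the log2 fold change was 0.99 ± 0.59 (95% interval −0.34 to 2.31). Without Chd8 siRNA library 2 it was 0.39. Asah1, the acid ceramidase gene (chromosome 8, 41340197 to 41374773), was 117, 117, and 101 CPM in control libraries and 127, 123, and 119 CPM in Chd8 siRNA libraries, a log2 fold change of 0.14 ± 0.11, and 0.07 without control library 3. Gaa, the acid alpha-glucosidase gene (chromosome 11, 119267887 to 119285454), was 30.9, 26.6, and 31.1 CPM in control libraries and 31.4, 32.4, and 31.8 CPM in Chd8 siRNA libraries. Its groups were barely apart, at a log2 fold change of 0.11 ± 0.18, and 0.04 without control library 2. For each of the 3 the two-sided exact permutation p was 0.1, the smallest that 3 against 3 libraries can give.

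None of the 3 regulators was called. In Chd8 siRNA libraries 1 to 3, Mitf was 174, 180, and 163 CPM against 174, 173, and 160 CPM in control libraries, a log2 fold change of 0.03 ± 0.12 with a 95% interval of −0.24 to 0.30. Tfe3 had 0.00 ± 0.30, and with the block its interval was −0.17 to 0.20. Tfeb was 1.61, 2.81, and 2.06 CPM against control values of 1.02, 3.57, and 1.24 CPM, and its log2 fold change of 0.16 ± 0.54 had a wide 95% interval, from −1.04 to 1.36. The sign for Mitf, Tfe3, and Tfeb changed when single libraries were left out. Genes with TCACGTG in the promoter had a median log2 fold change of 0.12 (10 of 11 above 0), and those with a promoter but without it 0.14 (16 of 21 above 0).

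Among the 104 other lysosome pathway genes tested, 0 were called in this comparison with or without the block, and the median was 0.04, with 55 above 0. The lowest p-values were those of Ctns, the cystine exporter gene (chromosome 11, 73183596 to 73199042), and Serpinb6a, the gene of a serine protease inhibitor that also inhibits a cathepsin. Ctns was 4.86, 3.57, and 2.96 CPM in control and 2.18, 1.40, and 1.73 CPM in Chd8 siRNA libraries, and no library of one group reached the other. Its log2 fold change was −1.09 ± 0.37, with an unadjusted p of 0.0153 in edgeR. Serpinb6a was 94.3, 101, and 85.1 CPM in control and 110, 135, and 124 CPM in Chd8 siRNA libraries, at 0.39 ± 0.14, again without overlap. Serpinb6a overlaps genes on the other strand. Hgsnat, described below for Tsc2, had −0.57 ± 0.26, and with the block DESeq2 and limma-voom gave it adjusted p-values of 0.00975 and 0.0392 at −0.56, under the fold required for a call. Ppp3r1, the gene of the regulatory subunit of calcineurin, a phosphatase that acts on TFEB (chromosome 11, 17159263 to 17200375), was 54.2, 27.8, and 27.5 CPM in control, 56.1, 42.4, and 39.4 CPM in Chd8 siRNA, and 51.1, 46.1, and 46.4 CPM in Tsc2 siRNA libraries. It differed by replicate number (adjusted p = 0.0108 in edgeR), with 51.1 to 56.1 CPM in libraries with number 1 and 27.5 to 46.4 CPM in the other 6. With the block and without control library 1, Ppp3r1 was called for Chd8 (0.62, adjusted p = 0.0375 in edgeR) and for Tsc2 (0.69, adjusted p = 0.0289), and for Tsc2 also without Tsc2 siRNA library 1 (0.65, adjusted p = 0.0308). With all libraries and the block its adjusted p was 0.266 for Chd8 and 0.217 for Tsc2. Its reads could be shared with Wdr92, which overlaps it on the same strand.

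**Figure D3:**
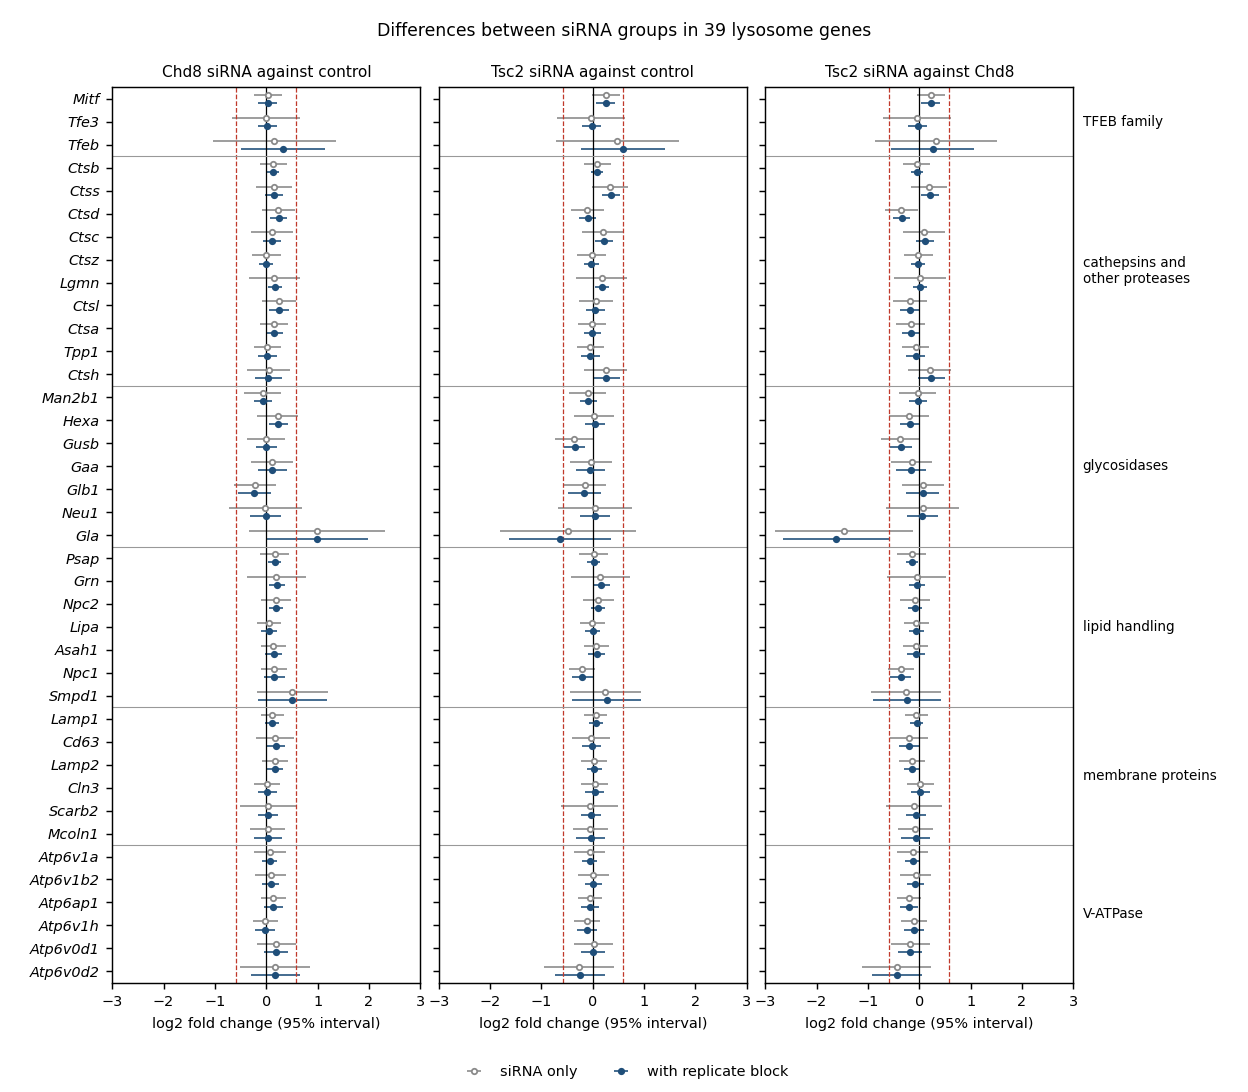
Log2 fold change of each lysosome gene with its 95% interval in 3 comparisons of siRNAs, from the model with the siRNA only (open points) and with the replicate block (filled points), with dashed lines at a 1.5-fold change. With the block the intervals of 35 of the 39 genes lie between the dashed lines in each comparison.

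The second comparison asked the same of Tsc2, whose product restrains mTORC1 upstream of TFEB. None of the 39 genes was called, nor were any others (0% of all genes tested), and with the block 0 of the 39 were called against 0.387% of all genes. The Tsc2 siRNA libraries were set against the same control libraries as above, so that the 2 comparisons are not independent. The median log2 fold change was 0.01 over the 39 genes and −0.02 over all genes. Of the 39, 20 were above 0, against 47.6% of all genes tested. The summed microglial markers were higher in every Tsc2 siRNA library (4231 to 4367 CPM) than in any control library (3346 to 4109 CPM), and the highest astrocyte and fibroblast sums were 58.4 and 48.7 CPM against 114 and 66.8 CPM, and their part in the values below was not tested. At an unadjusted p under 0.05, 1 of the 39 passed without the block, against 2.61% of all genes, and 8 with it, of which 6 were higher and 2 lower, against 10.7%. The 95% interval lay within a 1.5-fold change for 26 of the 39 genes, and with the block for 35. The medians by role were 0.07 for proteases, −0.10 for glycosidases, 0.07 for lipid-handling genes, 0.00 for membrane protein genes, and −0.06 for V-ATPase genes.

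Ctss (chromosome 3, 95526786 to 95556403), whose product stays active at neutral pH, was 1684, 1344, and 1280 CPM in control libraries and 1843, 1730, and 1857 CPM in Tsc2 siRNA libraries. All Tsc2 siRNA libraries were above all control libraries. The log2 fold change was 0.33 ± 0.16 (1.26-fold), with an unadjusted p of 0.0626 in edgeR, and with the block the adjusted p was 0.0731. With the block, DESeq2 gave an adjusted p of 0.00744 and limma-voom 0.0117, but the change stayed under 1.5-fold. In Chd8 siRNA libraries Ctss was 1918, 1525, and 1332 CPM, a log2 fold change of 0.15 ± 0.16 against control. Reads of Ctss could be shared with Hmgb1-ps5, which overlaps it on the same strand.

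Gusb, the beta-glucuronidase gene (chromosome 5, 129989011 to 130003049), was 82.9, 118, and 98.9 CPM in control libraries, 81.6, 111, and 107 CPM in Chd8 siRNA libraries, and 76.9, 83.0, and 72.1 CPM in Tsc2 siRNA libraries. The Tsc2 siRNA value was lower at every replicate number, though library 2 of this group was just above control library 1. The log2 fold change was −0.37 ± 0.17 (95% interval −0.74 to 0.00), with an unadjusted p of 0.0488 in edgeR and an adjusted p of 1.00. With the block, the adjusted p was 0.145 in edgeR and 0.0393 in DESeq2, and limma-voom's did not pass. Without control library 2 the log2 fold change was −0.23.

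Mitf (chromosome 6, 97807052 to 98021349) was 174, 173, and 160 CPM in control libraries and 175, 219, and 213 CPM in Tsc2 siRNA libraries. Libraries 2 and 3 were higher than every control, and library 1 was just above the highest control. The log2 fold change was 0.26 ± 0.12 (95% interval −0.01 to 0.53), and with the block 0.07 to 0.44 with an adjusted p of 0.267. Gm15531 overlaps Mitf on the other strand. Tfe3 was at −0.04 ± 0.30 against control, and Tfeb at 0.48 ± 0.54, with 2.48, 3.96, and 1.64 CPM in Tsc2 siRNA libraries. Tfeb was higher than control at all 3 numbers, and its groups overlapped. With single libraries left out its log2 fold change ran from 0.10 without Tsc2 siRNA library 2 to 1.25 without control library 2.

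Npc1, which encodes the membrane protein that exports cholesterol from lysosomes, was 81.1, 75.4, and 70.6 CPM in control libraries and 67.4, 64.9, and 64.4 CPM in Tsc2 siRNA libraries. The groups did not overlap, at a log2 fold change of −0.21 ± 0.11. Ctsh, an aminopeptidase gene of the cathepsin family (chromosome 9, 90054152 to 90076089), was 55.2, 52.9, and 42.0 CPM in control and 60.9, 56.2, and 61.1 CPM in Tsc2 siRNA libraries. Library 3 held most of that difference, and the log2 fold change was 0.25 ± 0.19, and 0.14 without control library 3. Atp6v1h, a V-ATPase subunit gene (chromosome 1, 5070018 to 5162529), was 57.4, 58.8, and 59.9 CPM in control and 53.0, 57.4, and 52.1 CPM in Tsc2 siRNA libraries, the second of which was just below the lowest control. Npc1 and Atp6v1h overlap other genes on the opposite strand.

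Counted over the list, all Tsc2 siRNA libraries were above all controls in 3 of the 39 genes (Mitf, Ctss, and Ctsh), against 3.87% of all genes, and below in 2 (Npc1 and Atp6v1h), against 4.23%. Within replicate numbers 8 genes were higher at all 3 numbers, against 15.5% of all genes, and 3 lower at all 3, against 16.3%. Genes with TCACGTG in the promoter had a median of −0.04 (4 of 11 above 0), and those with a promoter but without it 0.02 (12 of 21 above 0).

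**Figure D4:**
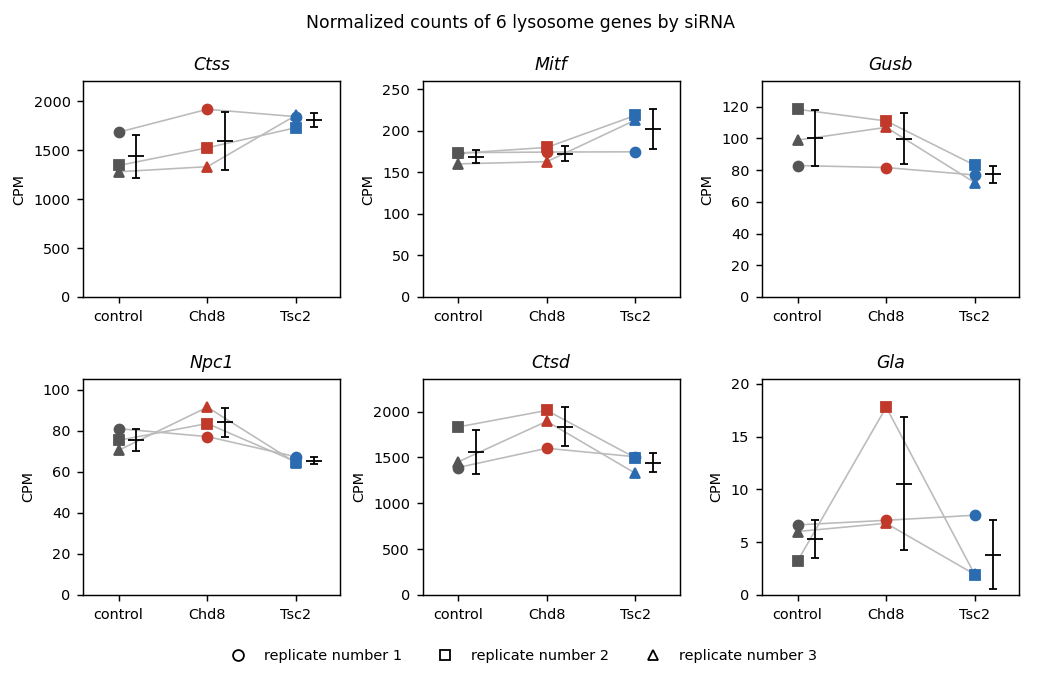
CPM of 6 lysosome genes by siRNA, with 1 point per library, symbols for replicate numbers, lines joining equal numbers, and the mean with its SD beside each group. Ctss and Mitf are higher and Npc1 lower in all 3 Tsc2 siRNA libraries than in any control library, and Gla stands out in Chd8 siRNA library 2.

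Among the other lysosome pathway genes, 0 of 104 were called without the block and 1 with it. This was Hgsnat (chromosome 8, 25944453 to 25976753), which encodes the acetyltransferase of heparan sulfate breakdown. It was 53.5, 100.2, and 86.1 CPM in control libraries, 35.6, 56.4, and 69.2 CPM in Chd8 siRNA libraries, and 46.0, 46.7, and 45.3 CPM in Tsc2 siRNA libraries. All Tsc2 siRNA libraries were below all controls, and Hgsnat also differed by replicate number (adjusted p = 0.0261 in edgeR). The log2 fold change was −0.80 ± 0.27, with an unadjusted p of 0.0134 in edgeR, and with the block −0.74 with an adjusted p of 0.0420. The call with the block was made in 2 of the 6 fits that each left out 1 library. It was lost without control library 2 (−0.58), control library 3 (−0.76), Tsc2 siRNA library 2 (−0.62), or Tsc2 siRNA library 3 (−0.58). Arsg, a sulfatase gene (chromosome 11, 109473374 to 109573330), was 1.09, 0.493, and 0.858 CPM in control and 0.0427, 0.351, and 0.322 CPM in Tsc2 siRNA libraries, of which the first was under the floor of 3 counts. The median over the 104 genes was −0.03, with 43 above 0.

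The third comparison set the knockdowns against each other. Without the block 0 of the 39 genes were called, against 0% of all genes tested, and with the block 0, against 0.221%. The median log2 fold change of Tsc2 siRNA against Chd8 siRNA was −0.08 over the 39 genes and 0.00 over all genes. Of the 39, 9 were above 0, against 49.4% of all genes tested. Without TMM factors 11 were, and the medians were −0.05 over the 39 genes and 0.03 over all genes. Of the 104 other lysosome pathway genes tested, 0 were called with or without the block. Their median was −0.09, with 33 above 0. In 10 of them all Tsc2 siRNA libraries were below all Chd8 siRNA libraries, and in 2 above. At an unadjusted p under 0.05, 3 of the 39 passed without the block, against 3.1% of all genes, and 9 with it (2 higher, 7 lower), against 10.7%. All Tsc2 siRNA libraries were below all Chd8 siRNA libraries in 5 genes, against 4.02% of all genes, namely Npc1, Ctsd, Ctsa, Lamp2, and Atp6ap1, and above in 0, against 4.42%. All 6 V-ATPase genes and all 7 lipid-handling genes had values under 0 under each scaling. Their medians were −0.15 and −0.08, and −0.12 and −0.05 without TMM factors. Of 12 other V-ATPase subunit genes, 8 were under 0, with a median of −0.06.

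Npc1 was 77.2, 83.6, and 91.6 CPM in Chd8 siRNA libraries against 67.4, 64.9, and 64.4 CPM in Tsc2 siRNA libraries. Its log2 fold change was −0.36 ± 0.11 (95% interval −0.62 to −0.10), with an unadjusted p of 0.0106 in edgeR, an adjusted p of 1.00, and 0.133 with the block. Ctsd was 1599, 2012, and 1894 CPM in Chd8 siRNA libraries against 1507, 1495, and 1326 CPM, at −0.35 ± 0.14, with an unadjusted p of 0.0370 in edgeR and an adjusted p of 0.0977 with the block. With the block, DESeq2 gave adjusted p-values of 0.0215 for Npc1, 0.00710 for Ctsd, and 0.0271 for Gusb, and limma-voom 0.0115 for Ctsd, all at changes under 1.5-fold.

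Gla had the widest difference of the 39 genes, with 7.07, 17.8, and 6.79 CPM in Chd8 siRNA libraries against 7.55, 1.91, and 1.93 CPM in Tsc2 siRNA libraries. Library 1 of both groups was at the same level, and libraries 2 and 3 were apart. The log2 fold change was −1.47 ± 0.60 (95% interval −2.81 to −0.13), and was −0.87 without Chd8 siRNA library 2 and −2.45 without Tsc2 siRNA library 1. With the block it was −1.62 with an adjusted p of 0.184, and it passed both thresholds without Chd8 siRNA library 1 (−2.31, adjusted p = 0.0462 in edgeR) or Tsc2 siRNA library 1 (−2.41, adjusted p = 0.0180). On the scale of TPM, where Gla-202 weighs more because it is short, Gla was 4.56, 5.05, and 3.67 TPM in Chd8 siRNA libraries and 3.26, 2.66, and 3.35 TPM in Tsc2 siRNA libraries, against 2.81, 3.45, and 2.07 TPM in control libraries.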

How the data were processed

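RNA-seq of 9 libraries of primary mouse microglia was analysed, 3 per siRNA, grouped by the siRNA and replicate number in the sample titles. The authors quantified reads with Salmon 0.14.1 on mm10 and deposited estimated counts per transcript, neither normalized nor pooled; the annotation release is not given in the sources used here. The library kit is a stranded SMARTer kit per the labels but an Illumina total RNA preparation per the methods, and whether strand was used in counting is not given in the sources used here. Between 26.8% and 32.1% of values per library were not whole. With GENCODE mouse release 21 (GRCm38), 139852 of 140948 transcripts were matched to genes, and the rest (0.270% of counts) were left out. Counts were summed to genes and rounded.

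Genes were tested in R 4.3.3 with edgeR 4.0.16 (filterByExpr, TMM, quasi-likelihood, all 9 libraries, the siRNA as the only factor), with Benjamini-Hochberg adjustment over all 16273 genes tested, and called at an adjusted p of at most 0.05 with a fold difference of 1.5 or more, the thresholds of the study's methods. SEs were calculated back from the F statistic. The alternatives were DESeq2 1.42.0, limma-voom 3.58.1, other scalings and filters, 6 libraries only, the replicate block, the highest transcript only, and each library left out. Deviations from group means correlated at 0.244 to 0.521 in all 9 pairs of libraries with the same number, taken from the sample titles, and at −0.381 to 0.0363 in 18 other pairs, so the numbers were taken to pair the libraries; genes are not independent replicates. The methods name separate brains per replicate. In the siRNA-only model, p-values measure the spread between cultures with the same siRNA and ignore this pairing. With the block, they measure the spread that is left after the replicate number. Exact permutation tests used log2(CPM + 0.5), two-sided. TPM used annotated transcript lengths. A floor of 3 counts was 0.0903 to 0.177 CPM and covers counting error only. Tests were tried on simulated data. In all, 117 comparisons of single lysosome genes were made.

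Every lysosome gene was taken by name. Values by library are given for the TFEB family, the 3 genes with the lowest p per comparison and for replicate number, and genes whose groups did not overlap in a knockdown comparison. Of 108 other pathway genes, 104 passed the filter, and those called with or without the block or with the 2 lowest p-values per knockdown comparison are described. Other names, such as Scarb2, Atp6v1a, Npc2, Glb1, Ppp3r1, and those of transcripts, were chosen after their values were seen. The members and lists were chosen with earlier results of these data known. Promoters of Asah1, Atp6v0d2, Atp6v1b2, Atp6v1h, Ctsb, Ctsh, and Npc1 were not used here.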

Additional observations from a re-analysis of the deposited data

How the results depend on the processing

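No lysosome gene was called in any comparison under the alternatives run, except Gla between Tsc2 and Chd8 siRNA with the replicate block and 1 library left out (0 to 1 genes called). Over all genes, the siRNA-only model called 0 for Chd8, 0 for Tsc2, and 0 between the knockdowns. With the replicate block, which uses the pairing by number, it called 87, 63, and 36. DESeq2's Wald test called 9, 6, and 5, and with the block 133, 115, and 103. limma-voom with the block called 140, 90, and 58, and no filter on low counts gave 2 and 1 in the knockdown comparisons. Leaving out 1 library gave 0 without the block and 20 to 81, 7 to 131, and 4 to 130 with it. The cause was not tested. DESeq2 and limma-voom with the block were added after the data were seen. With all libraries, the block changed no other call among the lysosome and pathway genes than that of Hgsnat (−0.74, and −0.73 and −0.78 in DESeq2 and limma-voom). With the block and 1 library left out, Gla and Ppp3r1 were also called.

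The median of the Chd8 comparison moved from 0.14 to 0.0937 without TMM factors, and that between the knockdowns from −0.075 to −0.048. The count of genes that differed by replicate number was 16, 20 with limma-voom, and 10 to 17 with 1 library left out. The sign of Tfe3 for Chd8 turned from −0.0045 to 0.016 with the block, 0.0059 with DESeq2's size factors or its Wald test, 0.0033 without the filter, 0.019 with limma-voom, 0.026 with DESeq2 and the block, and 0.34 with the highest transcript only, and for Tsc2 to 0.12 with the highest transcript only. Mitf for Chd8 was −0.0063 with the highest transcript only. With 1 library left out, Tfe3 ranged from −0.27 to 0.35 for Chd8, −0.29 to 0.31 for Tsc2, and −0.29 to 0.23 between the knockdowns, and with the block from −0.025 to 0.087, −0.071 to 0.054, and −0.088 to 0.011. Tfeb ranged from −0.16 to 0.93 for Chd8, 0.095 to 1.25 for Tsc2 (0.33 to 0.92 with the block), and −0.063 to 0.58 between the knockdowns (−0.013 to 0.52 with the block), Mitf for Chd8 from −0.0063 to 0.076 (−0.022 to 0.098 with the block), and Gaa for Chd8 with the block from −0.037 to 0.21. With 3 libraries a group, the residual degrees of freedom were 6, and 4 with the block. With the block, the intervals of Tfeb, Smpd1, Gla, and Atp6v0d2 reached beyond 1.5-fold in each comparison.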
